A study of Mus musculus with 6 samples.

Results

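Atf3 and Klf6, 2 transcription factor genes of the stress response, were followed through the chromatin maps of hnRNP UL1 in RAW 264.7, a macrophage line from mouse. Cells had received lipopolysaccharide (LPS, the bacterial cell-wall component sensed by Toll-like receptor 4) at 100 ng/ml for 4 h or 10 h, or were untreated (0 h). Chromatin was immunoprecipitated with a Proteintech antibody against hnRNP UL1 and sequenced, in 1 ChIP library per time. The 3 input libraries were not analysed here. Each row of a peak table gives 1 peak as a point 2 bp wide with its nearest gene and an annotation class, without height, enrichment, extent or read depth.

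The rows followed here are those that name Atf3 or Klf6, or whose point lies in either gene or in the 5 kb upstream of it. There were 24 of them among 18624 complete rows: 6 of 8425 at 0 h, 17 of 9046 at 4 h and 1 of 1153 at 10 h. Atf3 accounted for 14 of them and Klf6 for 10. Both genes were chosen by their numbers of points in these tables at 4 h and 0 h, so those numbers are descriptions and no test was made on them. With 1 library per time there is no replicate check, and the intervals below (exact Clopper-Pearson, 95%) cover counting error only. Peaks show neither expression nor the identity of the cells, so the labelled cell type was not checked against markers.

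The tables run in order of gene ID and stop at different IDs, which sets what can be compared. Klf6 (ENSMUSG00000000078) lies below the end of all 3 tables. Atf3 (ENSMUSG00000026628) lies below the end of the 4 h table (ENSMUSG00000027620) but above that of the 10 h table (ENSMUSG00000022416). Its 10 h points were therefore not analysed here, and Atf3 was compared between 4 h and 0 h. Counts over all genes use the IDs below the same ends. Those named by a row and matched to a protein-coding gene number 3371 for the 4 h and 0 h tables and 2070 for all 3 tables. A gene that no row of the compared tables names is not among them. Most of these rows are of 4 h (9045, against 2225 at 0 h). The shares of genes with a point, or with more points, at 4 h are thus high in part by this choice.

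Atf3 encodes activating transcription factor 3, a basic leucine zipper (bZIP) protein that binds cyclic AMP response elements and is induced by many stresses. In macrophages it is induced through Toll-like receptors and restrains the transcription of inflammatory cytokine genes. Klf6 encodes Krüppel-like factor 6, a zinc finger protein that binds GC-rich and CACCC promoter elements and is known as an immediate early gene. hnRNP UL1, the precipitated protein, belongs to the hnRNP U family of RNA-binding proteins and has roles in transcript processing and DNA repair.

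The 250 bases before each gene start are shown because points lay on both sides of the Atf3 start, while at Klf6 the points began inside the gene. Sequences are RefSeq's on GRCm38.p6, the build of the tables, and both genes were matched by symbol. Capitals mark matches on either strand to GGGCGG (the GC box), CACCC (a KLF element) and TGACG (the core of the cyclic AMP response element). The Atf3 window lies at chr1:191183334-191183583 on the minus strand and the Klf6 window at chr13:5861239-5861488 on the plus strand.
Atf3: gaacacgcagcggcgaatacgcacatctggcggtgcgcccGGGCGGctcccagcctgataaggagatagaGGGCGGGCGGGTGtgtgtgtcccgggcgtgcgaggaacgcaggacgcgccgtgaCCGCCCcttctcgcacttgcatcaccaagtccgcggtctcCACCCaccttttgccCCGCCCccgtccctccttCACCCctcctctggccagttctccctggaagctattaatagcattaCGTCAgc
Klf6: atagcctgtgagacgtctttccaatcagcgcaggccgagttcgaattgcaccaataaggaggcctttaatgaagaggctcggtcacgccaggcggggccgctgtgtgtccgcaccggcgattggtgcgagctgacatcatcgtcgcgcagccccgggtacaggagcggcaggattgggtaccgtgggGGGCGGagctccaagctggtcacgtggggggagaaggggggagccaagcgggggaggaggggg

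The Atf3 window held 5 GC boxes, of which 2 share bases with each other, 3 CACCC elements, of which 1 shares bases with a GC box, and 1 TGACG match on the opposite strand that begins 7 bases before the start. The Klf6 window held 1 GC box, no CACCC element and no TGACG. Neither window held TGANTCA (the AP-1 element), TATAAA or a match to the NF-kB consensus. Of all 32851 windows of this length in the RefSeq table, 32.7% held a GC box, 52.0% CACCC, 17.8% TGACG, 6.75% TGANTCA, 12.4% TATAAA and 7.25% the NF-kB consensus. G and C made up 65.2% of the Atf3 window and 64.8% of the Klf6 window, against a median of 52.4%. No 0 h or 4 h point lay inside either window, and no 10 h point lay inside that of Klf6. The IDs of the 10 h table do not reach Atf3. The nearest 4 h point lay 322 bp from the Atf3 window, and the nearest 0 h point 99 bp from it. For Klf6 the nearest 4 h point was 1225 bp away. The tables do not give how far a peak reaches, so whether a peak covers these bases was not determined.

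At Atf3 the question was how the peaks after 4 h of LPS compare with those before it. In the IDs that both tables cover, the gene (chromosome 1, 191170296 to 191183333, minus strand) and its 5 kb upstream held 9 points at 4 h and 4 at 0 h. Along the gene, the 4 h points lay at 2638 bp upstream of the start and at 320, 2190, 3047, 3239, 4272, 5409, 6867 and 8243 bp inside it. The 0 h points lay at 349 bp upstream of the start and at 2079, 3072 and 4297 bp inside it. The 4 h points thus ran over 10882 bp and the 0 h points over 4647 bp, with median gaps between neighbours of 1256.5 bp and 1225 bp.

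The stretch from 2079 to 4297 bp inside Atf3, towards its start, carried points at both times. The 4 h point at position 191179060, in intron 1 of 3, lay 25 bp from the 0 h point at 191179035. The 4 h point at 191180285 again lay 25 bp from a 0 h point, that at 191180260, and a further 4 h point, at 191180093, lay 167 bp from the same one. The 4 h point at 191181142 lay 111 bp from the 0 h point at 191181253. Within 500 bp of a 4 h point were thus 3 of the 4 points of 0 h, against 18.0% of all 0 h points in the IDs that both tables cover. In the other direction 4 of the 9 points of 4 h lay within 500 bp of a 0 h point, against 4.51% of all 4 h points.

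How often points lie near each other depends on how densely a gene is covered. Of the counted Atf3 region 44.7% lies within 500 bp of a 4 h point, so the share over all genes is not a base rate for this gene. Of the 61 genes with at least 4 points at 0 h, 3 had no more than 1 in 4 of them farther than 500 bp from a 4 h point. That limit was set after the value of Atf3 was known. Besides Atf3 these were the lysosomal genes Ctsb, with 13 of 16 points, and Psap, with 17 of 22. They too carry dense 4 h points, 5.97 per 10 kb at Ctsb and 6.34 at Psap, and 47.7% and 51.8% of their regions lie within 500 bp of one. At 31 of the 61 genes no 0 h point lay that close to a 4 h point. Among all 400 points of 0 h that had a 4 h point within 500 bp, the median distance was 168.5 bp, and 53 lay within 25 bp.

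**Figure D1:**
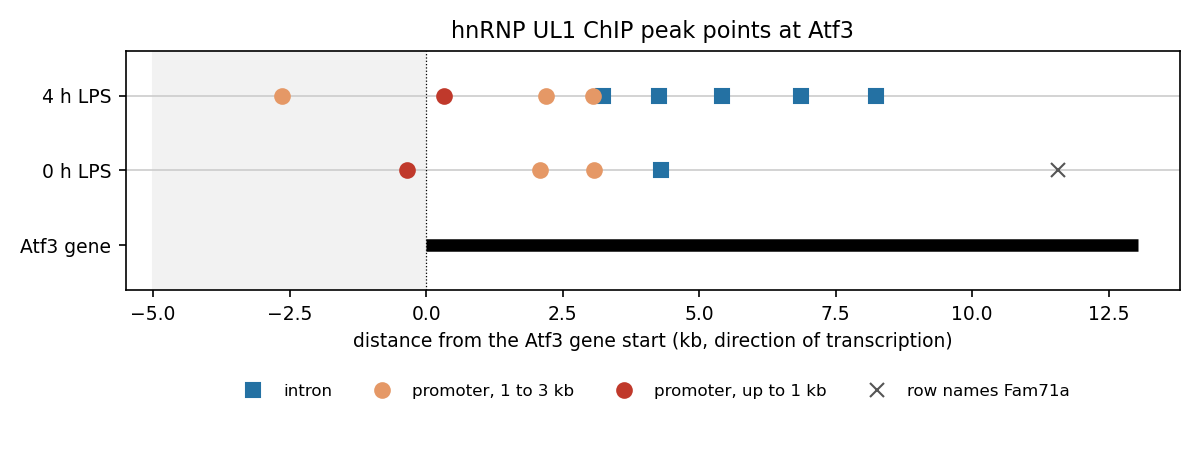
Points of hnRNP UL1 peaks at Atf3 after 4 h of LPS (upper row) and at 0 h (lower row), by distance from the gene start in kb. The black bar is the gene, the shaded part the 5 kb upstream, and colours give the authors' annotation class. The 3 points of 0 h at 2079, 3072 and 4297 bp stand under 4 h points, while the 4 h points at 5409, 6867 and 8243 bp have no 0 h point within 500 bp. The grey cross, which gives no class, is the 0 h point at 11578 bp whose row names Fam71a. It is left out of the counts.

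The remaining 5 points of 4 h lay apart from those of 0 h. In intron 1, the point at 5409 bp was 1112 bp from the nearest 0 h point. In intron 2, the points at 6867 and 8243 bp were 2570 and 3335 bp away. Upstream of the start, the point at 2638 bp was 2289 bp away. At the start itself the 4 h point lay 320 bp inside the gene and the nearest 0 h point 349 bp upstream of it, 670 bp apart. Each time had 1 point in the authors' class of promoters up to 1 kb, a class with 19.9% of all 4 h points and 33.4% of all 0 h points in the shared IDs. The promoter classes up to 3 kb together held 4 of 9 points at 4 h and 3 of 4 at 0 h, beside 35.7% and 45.9% of all points. The intron class held the other 5 points at 4 h and the other 1 at 0 h, beside 41.2% and 34.3% of all points. Points inside the gene up to 3 kb from a transcript start fall in the promoter classes.

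Inside Atf3 lay 1 more 0 h point, left out of these counts because its row names the neighbour Fam71a. It sat at position 191171754, in intron 3 of 3, 11578 bp from the Atf3 start. The ID of Fam71a (ENSMUSG00000091017) lies beyond the end of the 4 h table. By the starts the tables use, the last 3667 bp of Atf3, 28.1% of the gene, lie closer to the start of Fam71a. Points there could not be compared between the times, and the 4 h points end before that stretch.

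The number of points at Atf3 was set beside the number of all points. Of the 9045 points of 4 h in the shared IDs 0.995 per 1000 lay at Atf3 (0.455 to 1.89), and of the 2225 points of 0 h 1.80 per 1000 (0.490 to 4.60). Atf3 had 2.25 times as many points at 4 h as at 0 h, while all points in the shared IDs were 4.07 times as many. At least 2-fold more points at 4 h were found at 68.9% of the 3371 genes. Here and below, genes with 0 points at 0 h and at least 1 at 4 h count among these. Since 33.9% of the genes had a point at 0 h, many of those counted have no fold to set beside that of Atf3.

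Against other genes Atf3 stood high at both times. At 4 h 80.6% of the 3371 genes had a point, and 86 genes had more points than Atf3. At 0 h 33.9% of them had a point, and 34 genes had more. Per length, Atf3 had 4.99 points per 10 kb at 4 h and 2.22 per 10 kb at 0 h. By this measure 14 genes ranked above it at 4 h and 8 at 0 h. Fam20c, Sgk1, Rai14 and Celf2 had the same pair of counts as Atf3, with 9 points at 4 h and 4 at 0 h, and Inpp5d followed with 8 and 4. These 5 genes are 54983 to 856648 bp long, against 13038 bp for Atf3.

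**Figure D2:**
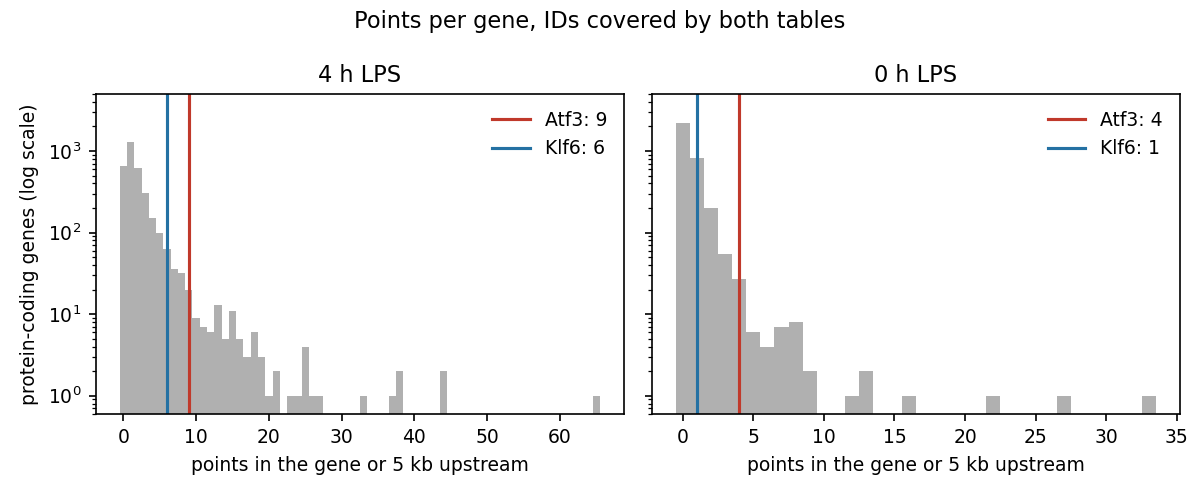
Number of protein-coding genes (log scale) by points in the gene or 5 kb upstream at 4 h of LPS (left) and at 0 h (right), for the 3371 genes with IDs covered by both tables. Lines mark Atf3, with 9 points at 4 h and 4 at 0 h, and Klf6, with 6 and 1.

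Klf6 (chromosome 13, 5861489 to 5870393, plus strand) could be followed through all 3 times. The gene and its 5 kb upstream held 1 point at 0 h, 6 points at 4 h and 0 at 10 h. Rows that name Klf6 at any distance numbered 1, 8 and 1, since 2 further points at 4 h and the only one at 10 h lay past the end of the gene. All listed points therefore fell in the gene or downstream of it. Upstream, the non-coding neighbour 1700016G22Rik ends 3397 bp from Klf6, and positions farther than 1673 bp from the Klf6 start lie closer to the start of that neighbour. No row names it and its ID was not determined here, so the 4 h and 10 h tables show no point upstream of Klf6 only as far as those 1673 bp. The whole 0 h table holds no point in the 5 kb.

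The 4 h points ran along the Klf6 gene at 1224, 1775, 2776, 3869, 6017 and 6352 bp from its start. The other 2 lay 383 and 807 bp past its end. In all they covered 8487 bp with a median gap of 1001 bp. At 0 h the single point, at position 5869493, lay near the other end of the gene at 8004 bp from the start, in the 3' UTR by the authors' annotation. It was 1283 bp from the nearest 4 h point. The 10 h point, at position 5871902, lay 1509 bp past the gene end, 702 bp from the nearest 4 h point and 2409 bp from the 0 h point. At Klf6 no point of one time lay within 500 bp of a point of another time. Of all 0 h points with IDs in every table, 19.1% lay that close to a 4 h point.

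**Figure D3:**
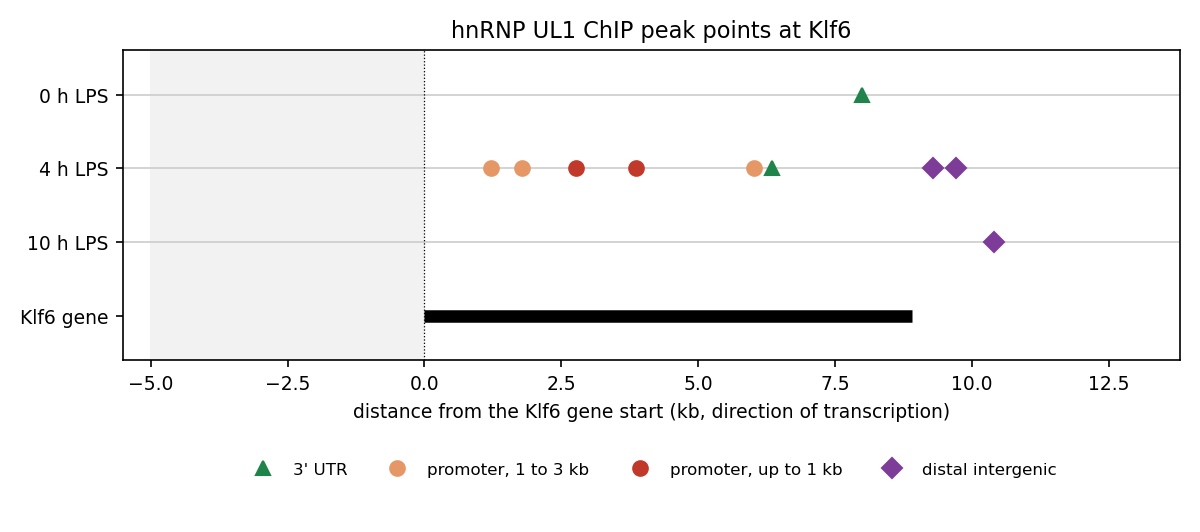
Points of hnRNP UL1 peaks at Klf6 at 0 h, 4 h and 10 h of LPS (rows from the top), by distance from the gene start in kb. The black bar is the gene, the shaded part the 5 kb upstream, and colours give the authors' annotation class. At 4 h 6 points lie in the gene and 2 past its end, at 0 h 1 point lies in the gene, and at 10 h 1 point lies past its end.

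The authors' class of a Klf6 point depended on which transcript start it was measured from. By their annotation 2 of the 8 points of 4 h lay in a promoter up to 1 kb, at 412 bp before and 680 bp after the start of ENSMUST00000221734. That transcript begins at 5864678, inside the gene. Measured from the RefSeq gene start, these points lay 2776 and 3869 bp downstream, and no Klf6 point of any time lay within 1 kb. With the classes up to 3 kb, 5 of the 8 points of 4 h were promoter points, beside 36.5% of all 4 h points in the IDs of every table. The other 3 were the 3' UTR point and the 2 distal intergenic points past the gene end, classes with 2.30% and 16.9% of all 4 h points. None of the 8 was in the intron class, which holds 40.7% of all 4 h points. The promoter classes also take points inside a gene up to 3 kb from a transcript start. Whether any of the 8 lies in an intron is therefore not shown by the classes. The 10 h point was distal intergenic.

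As a share of the points in the IDs of all 3 tables, Klf6 held 0.762 per 1000 of 1312 points at 0 h (0.0193 to 4.24) and 1.13 per 1000 of 5298 points at 4 h (0.416 to 2.46). At 10 h it held 0 of 1152 points, which allows up to 3.20 per 1000. In number Klf6 had 6 times as many points at 4 h as at 0 h, a ratio that rests on a single 0 h point. All points in the IDs of all 3 tables were 4.04 times as many at 4 h. At least 2-fold more points at 4 h than at 0 h were found at 66.5% of the 2070 genes, those with 0 at 0 h and at least 1 at 4 h included.

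Of these genes 33.2% had a point at 0 h, 77.4% at 4 h and 27.5% at 10 h. At 4 h 101 genes had more points than Klf6, and 14 had more per length than its 4.31 per 10 kb. At 0 h 186 genes had more points. Dnajc15, Pdhx and Hivep1 had the same counts as Klf6 at all 3 times, and Csf1 followed with 0, 6 and 0. These genes are 19422 to 133132 bp long, against 8905 bp for Klf6.

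Side by side, the genes differed in where their counted 0 h points lay. The 4 of Atf3 lay from 349 bp before the start to 4297 bp inside the gene, 3 of them next to 4 h points. The 0 h point inside Atf3 that was left out of the counts, in a row naming Fam71a, lay at 88.8% of the gene's length. Klf6 had a single 0 h point at 89.9% of the gene's length, away from the 4 h points. After 4 h of LPS each gene carried a series of points along its body. Median gaps were 1256.5 bp (Atf3, the point upstream of its start included) and 1001 bp (Klf6, the 2 points past its end included).

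The families of both factors were counted from lists chosen with earlier results of these data known. Of 40 ATF, AP-1 and other bZIP genes, 11 had a row in the IDs that the 4 h and 0 h tables share. They held 24 points at 4 h and 8 at 0 h, and without Atf3 15 and 4. A point was found at 10 of the 11 at 4 h and at 3 at 0 h, and 9 had at least 2-fold more at 4 h. Over all genes 80.6%, 33.9% and 68.9% did so. Both sets hold only genes that a row names, and most rows are of 4 h, so these shares follow in part from that choice. Their median was 1 point at 4 h and 0 at 0 h, the same as over all genes. After Atf3, the most 4 h points were found at Bach1, a repressor of heme oxygenase, with 4 at 4 h and 0 at 0 h. Nfe2l2, the regulator of the antioxidant response, had 3 and 0, and Creb1, a cyclic AMP response factor, had 2 and 0. The whole 0 h table holds 4 points at Nfe2l2 in rows that name genes with IDs past the 4 h table, so its count of 0 covers the shared IDs alone. Atf1, with 1 at 4 h and 3 at 0 h, and Fos, with 0 and 1, went the other way and are named after their values were seen.

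Of 26 KLF and SP genes, 8 had a row in the shared IDs, with 15 points at 4 h and 4 at 0 h, and without Klf6 9 and 3. At 4 h 6 of the 8 had a point, at 0 h 4 did, and 6 had at least 2-fold more at 4 h, beside 80.6%, 33.9% and 68.9% of all genes. Sp1, a general GC-box binding factor, had 3 points at 4 h and 0 at 0 h, Klf7 had 2 and 1, and Sp2 had 2 and 0. The whole 0 h table holds 3 points at Klf7, so its count of 1 covers the shared IDs alone. Sp3 and Sp4, with 0 at 4 h and 1 at 0 h each, went the other way and are named after their values were seen. Where IDs are covered at every time, 5 members held 1 point at 0 h, 12 at 4 h and 2 at 10 h, and without Klf6 0, 6 and 2. A point was found at 1 of the 5 at 0 h, 5 at 4 h and 2 at 10 h, beside 33.2%, 77.4% and 27.5% of all genes. Klf4, a factor of macrophage differentiation, had 0, 1 and 1 there, and Sp1 had 0, 2 and 1.

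**Figure D4:**
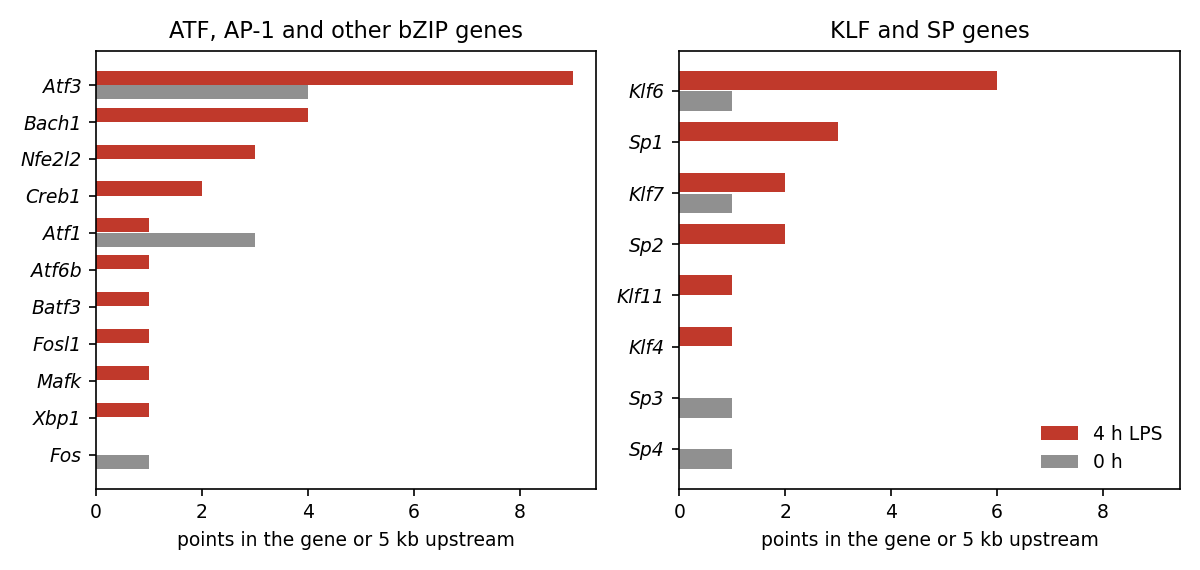
Points in the gene or 5 kb upstream at 4 h of LPS (red) and at 0 h (grey) for the 11 bZIP genes (left) and the 8 KLF and SP genes (right) with a row in the IDs that both tables share. Atf3 with 9 points and Klf6 with 6 head their lists at 4 h, and the other genes hold 4 or fewer.

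Of 21 other immediate early and stress genes, 8 had a row in the IDs of all 3 tables, with 1 point at 0 h, 11 at 4 h and 3 at 10 h. The most at 4 h were 2 points each at Btg2, Ddit4, Gadd45b and Myc. Of these Gadd45b, a growth arrest and DNA damage gene, also had 1 point at 10 h, and all 4 had 0 at 0 h. A point was found at 1 of the 8 at 0 h, 7 at 4 h and 3 at 10 h, beside 33.2%, 77.4% and 27.5% of all genes. In the IDs that the 4 h and 0 h tables share, 11 had a row, and 7 of them had a point at 4 h and 1 at 0 h, beside 80.6% and 33.9%. The 3 added there, Chac1, Dusp1 and Dusp2, had 0 points at both times.

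Fam71a, the nearest annotated neighbour of Atf3, lies 5479 bp past its end. Within 50 kb of Atf3 the 0 h table holds 4 more rows, 3 that name Fam71a, among them the point inside Atf3, and 1 whose gene has no name in the table, 40931 bp away. That point lies in the counted region of D730003I15Rik, a non-coding gene and the nearest neighbour on that side. Within 50 kb of Klf6 it holds 1 more, 21288 bp past the gene, while the nearest neighbour downstream, the non-coding gene Gm46401, starts 45313 bp away and holds no point. All 5 name IDs beyond the end of the 4 h table, so they have no counterpart there by construction.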

How the data were processed

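hnRNP UL1 ChIP-seq peaks of RAW 264.7 cells were taken from the 3 ChIP tables, 1 per time, grouped by sample title. The submitters' processing notes list the build GRCm38 (mm10) and the tools MACS2 2.1.0, BWA 0.7.12 and CASAVA 1.8. Roles, settings and the use of input are not given in the sources used here. Per the file headers, the authors deposited positions and distances in bp and the span of 1 transcript per peak, so depth is unknown. The cut last row of the 4 h table was left out. Gene spans came from RefSeq on GRCm38.p6, strands from the tables. Points were counted in a gene or 5 kb upstream among rows naming genes below the end of the compared tables, the end gene excluded. Distances use the edge of the point nearest the gene start. Points within 500 bp were called near. The limits of the gene regions, the distances from the gene start and the merging of close points were checked on planted points. The other counting steps were not. Members and lists were chosen with earlier results of these data known. Named were both genes, up to 4 members of each list by 4 h points, and the 5 genes with the smallest Euclidean distance between counts, ties by length, of which 1 is not reported here. The planned window around each point needs a genome sequence and was not run. Python 3.11.15, scipy 1.17.1 and matplotlib 3.10.9 were used.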

Additional observations from a re-analysis of the deposited data

How the results depend on the processing

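With 1 library per time, no replicate could be left out. No paired analysis was possible because each group holds 1 sample and no test was made. Of 71 values under alternative settings 61 stayed within 1.5 times the main count or, for shares, within its interval. Points at Atf3 did so under every region tried (2 and 10 kb upstream, 5 kb to both sides, spans from the peak tables, rows naming the gene, every nearest gene) and when points under 500 bp apart were counted once. For Klf6, the spans in the peak tables end before the 0 h point and gave 0 at 0 h, and rows naming the gene or 5 kb to both sides gave 1 at 10 h. Per all complete rows the 0 h share at Atf3 was 0.475 per 1000, since that table holds many more IDs. Promoter points at 4 h up to 1 kb numbered 2 at Klf6 by the authors' class and 0 from the RefSeq start, and up to 3 kb they were 5. At Atf3 the limit of 3 kb gave 4 at 4 h and 3 at 0 h. Near points in the counted regions were also counted at 200 and 1000 bp, without a move beyond 1.5 times, but among rows naming Klf6 a distance of 1000 bp made 1 of the 4 h points and the 10 h point near each other (1 each, against 0 at 500 bp). The motif window around points was not run. Peak heights and depth, which would weight the points, are unknown.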
